A study of Mus musculus with 2 samples.

Results

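Interferon regulatory and induced genes were followed in mouse embryonic stem cells that either expressed Tcl1 again or lacked it. They are the genes whose symbol in GEO's annotation of the platform names an interferon regulatory factor (Irf), Stat2, an Ifit, Ifitm, Ifi, Isg or Gbp gene, or Ifih1, Mx1, Mx2, Usp18, Bst2, Rsad2, Psmb8 or Psmb9, without the Oas genes. The rule found 58 of the 19087 named genes, measured by 83 probes. In the study, 2 dye-swapped Agilent arrays each set a Tcl1 stable transformant against a Tcl1 gene disruptant. Array 1 carried transformant clone 1 in Cy5 and disruptant clone 4 in Cy3, and array 2 carried transformant clone 4 in Cy3 and, in Cy5, disruptant clone 6 with a stably integrated CAG-EGFP vector. All cells were grown without feeders in LIF and had both Tcl1 alleles interrupted by a PGK-puro cassette that took the place of parts of exons 2 and 3, and the transformants in addition held a CAG-Tcl1ireszeopA vector that had been put into disruptant clone 4. Each line is 1 clone, so a difference between clones that has nothing to do with Tcl1 cannot be told apart from one that has.

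Interferons are secreted proteins that bind receptors coupled to Janus kinases, and these phosphorylate Stat proteins. With Irf9, the Stat proteins form a factor that binds the interferon-stimulated response element in promoters of antiviral genes, while Irf3 and Irf7 act upstream, where viral nucleic acids are sensed, to switch on the interferon genes themselves. Embryonic stem cells are known for a weak interferon response compared with differentiated cells.

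Values are log2 ratios with the transformant on top, first of array 1 and then of array 2, so a positive number means more RNA in the transformant. Means are given ± SD (n = 2 arrays). The deposited numbers had a median of 0 on array 1 and 0 on array 2 and spanned −2.69 to 1.89. Their log10 scale was inferred and the way of centring is unknown. Cy5 over Cy3, the usual direction of the scanner program, was assumed and is stated nowhere. If it ran the other way, every sign would turn. Without channel intensities neither the level of a gene nor its distance from background is known, so whether the stem cell markers are expressed could not be checked. Nor can fewer cells of a type be told apart from less RNA per cell. Tcl1, the targeted gene, read −0.37 and 0.17, and since the place of its probe in the gene is unknown, this does not check the labels.

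No large difference was seen for the interferon genes. On array 1 they ran from −1.12 to 0.85 and on array 2 from −1.11 to 1.06, and 56 of 58 had a mean within 1.5-fold of 0. The 2 beyond that size were Irf7, higher in the transformants by 1.56-fold, and Irf4, lower by 1.53-fold. Their median was 0.087 on array 1 and 0.010 on array 2, against 0.0053 and 0 for all named genes. Their spread (SD over genes) was 0.42 and 0.42, against 0.43 and 0.50 over all named genes. A difference of at least 2-fold was reached by 1 member (1.72%) on array 1 and by 3 members (5.17%) on array 2, where all named genes gave 3.46% and 6.02%.

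limma called 0 of the 58 members after adjustment over all 30110 entries, and its background was likewise 0%. The adjusted p was 1 for each of them. At an unadjusted limma p under 0.05 there was 1 member, Ifi30, which is 1.72% of the members against a background of 3.38% of named genes. Both arrays lay above 0 for 20 members (34.5%), where the background was 22.1%, and below 0 for 10 members (17.2%), where it was 19.4%. The remaining 28 of 58 had 26 with opposite signs and 2 with an exact 0 on 1 array. Of all 19087 named genes, 11178 likewise had different signs or a 0. Of the 20 above 0, 9 reached 0.1 on both arrays, and of the 10 below 0, 5 reached −0.1 on both. This limit was not counted over all named genes, so these 2 counts describe size only. At least 1.5-fold the same way on both arrays was seen for 0 members, with a background of 0.309% higher and 1.22% lower. The share above 0 on both arrays was thus larger than in the background, with small values, and no p-value was computed for the list because genes are not replicates.

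**Figure D1:**
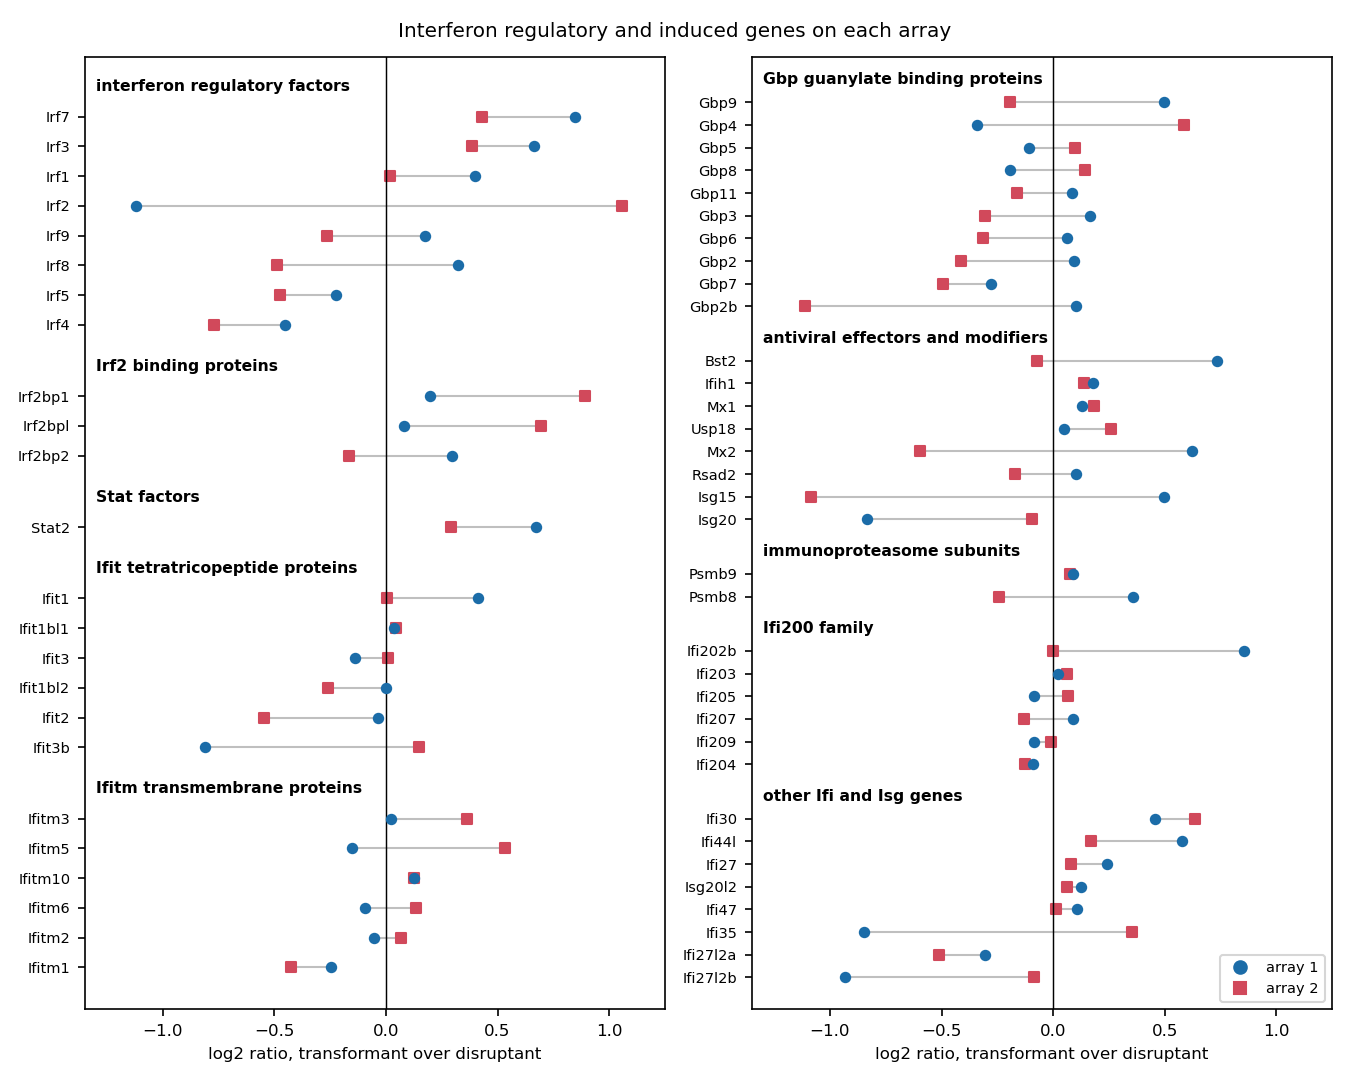
Log2 ratio of transformant over disruptant (horizontal axis) for each of the 58 interferon regulatory and induced genes, with array 1 as blue circles and array 2 as red squares, joined by a grey line and grouped by role. Irf7, Irf3, Stat2 and Ifi30 lie right of 0 on both arrays and Irf4, Irf5, Ifitm1, Gbp7 and Ifi27l2a left of it, while Irf2, Isg15 and Mx2 span 0.

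To show the promoter element through which many of these genes answer interferon, stretches before the start site of 8 members are given, read 5′ to 3′ on the strand of the gene, with every match to the core of the response element in capitals. The sequences are those of RefSeq on build GRCm38.p6. They lie at chr4:156200835-156200936, minus strand (Isg15), chr10:128270248-128270325, plus strand (Stat2), chr8:46739495-46739553, plus strand (Irf2), chr8:71537547-71537642, minus strand (Bst2), chr3:142530243-142530332, plus strand (Gbp7), chr3:142594670-142594759, plus strand (Gbp2b), chr19:34640745-34640853, plus strand (Ifit1) and chr19:34583333-34583422, plus strand (Ifit3).
Isg15: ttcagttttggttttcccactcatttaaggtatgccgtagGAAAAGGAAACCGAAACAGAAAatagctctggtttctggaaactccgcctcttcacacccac
Stat2: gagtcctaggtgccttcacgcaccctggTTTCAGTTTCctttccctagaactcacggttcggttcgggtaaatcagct
Irf2: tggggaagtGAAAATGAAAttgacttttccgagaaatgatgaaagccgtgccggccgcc
Bst2: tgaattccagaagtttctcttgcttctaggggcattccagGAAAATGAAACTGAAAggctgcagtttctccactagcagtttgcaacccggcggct
Gbp7: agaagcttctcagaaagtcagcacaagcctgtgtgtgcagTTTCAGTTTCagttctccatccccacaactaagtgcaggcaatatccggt
Gbp2b: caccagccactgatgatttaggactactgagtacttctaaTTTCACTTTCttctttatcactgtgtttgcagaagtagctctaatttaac
Ifit1: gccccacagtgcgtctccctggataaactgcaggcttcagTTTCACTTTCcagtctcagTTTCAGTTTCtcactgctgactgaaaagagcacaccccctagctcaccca
Ifit3: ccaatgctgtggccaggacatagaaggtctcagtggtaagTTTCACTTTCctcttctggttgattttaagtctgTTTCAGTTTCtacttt

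The core was searched as GAAANNGAAA on both strands, from 250 bases before to 50 bases after the start site. RefSeq windows matched 46 of the 58 members by symbol. Those not matched were Gbp4, Gbp6, Gbp8, Gbp9, Gbp11, Ifi204, Ifi27, Ifi27l2a, Ifi27l2b, Mx1, Mx2 and Usp18. The core was found for 21 of the 46 (45.7%), against 3.99% of 27025 genes with such windows and 3.44% of the 32851 windows. The promoter of Isg15 held 3 overlapping matches. The stretch of Ifit1 is shared with its neighbour Ifit1bl2, which is read from the other strand, so that all 109 bases are the same when 1 of them is reversed and complemented. Ifit3 and Ifit3b, at different places on chromosome 19, were identical over all 90 bases of the stretch shown. The core of the gamma-activated site, searched as TTCNNNGAA, which is its own reverse complement, was found for 14 of the 46 (30.4%) and for 9.55% of all genes with windows. Both motifs were found for 5 members, which were Gbp5, Gbp7, Ifitm3, Bst2 and Irf2.

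Members with the response element core had medians near 0. For these 21 genes they were 0.037 on array 1 and 0.0084 on array 2, against 0.12 and 0.018 for the 25 without it. Above 0 on both arrays were 6 of the 21 (Ifi203, Ifih1, Ifit1, Ifit1bl1, Ifitm3 and Stat2), and below 0 on both was 1 (Gbp7). Without the core, 11 of 25 were above and 6 below. Over all named genes, 22.1% were above 0 on both arrays and 19.4% below. The difference between the 2 groups was not tested. A match of these letters is a description of the window and does not show that a factor binds there.

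**Figure D2:**
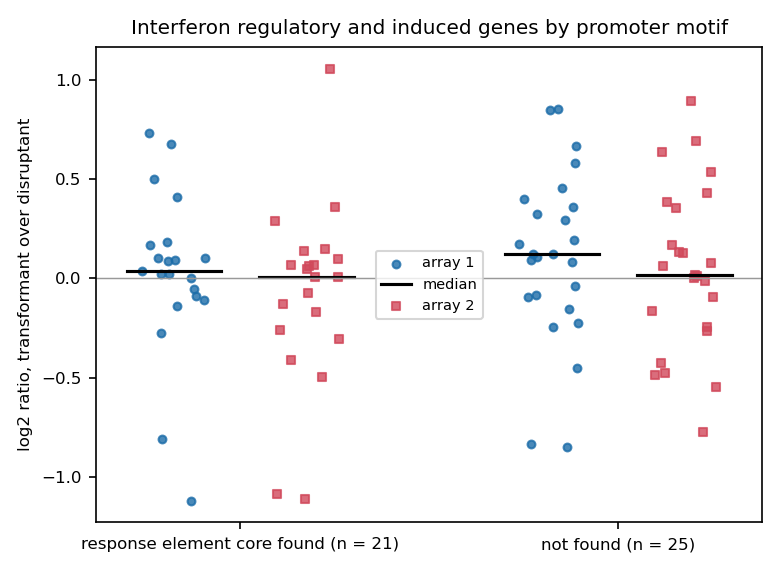
Log2 ratio of transformant over disruptant (vertical axis) for the 21 members whose promoter window holds the core of the interferon-stimulated response element, left, and the 25 in which it was not found, right, with array 1 as blue circles, array 2 as red squares and a black bar at each median. The medians are 0.037 and 0.0084 with the core, against 0.12 and 0.018 without it.

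Among the interferon regulatory factors, transcription factors that share a DNA-binding domain, values lay on both sides of 0. Irf7, which drives the interferon-alpha genes, had 0.85 and 0.43 (mean 0.64 ± 0.30). Irf3, which is present before infection and switches on Ifnb1, had 0.66 and 0.38 (mean 0.52 ± 0.20). Irf3 and Irf7 were above 0 on both arrays. Irf7 was measured by 1 probe only, while both probes of Irf3 lay above 0 on both arrays. For Irf3 these probes read 1.14 and 0.35, and 0.19 and 0.42. Irf1, an early target of interferon-gamma, had 0.40 and 0.018, which put it near 0 on array 2, where its 3 probes ran from −0.40 to 0.39.

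Irf4 and Irf5 lay below 0 on both arrays. Irf4, best known from lymphocytes, had −0.45 and −0.77 (mean −0.61 ± 0.23). Irf5, which acts in inflammatory gene induction downstream of Toll-like receptors, had −0.22 and −0.48 (mean −0.35 ± 0.18). Irf2, which can antagonise Irf1, had the widest gap of the members, with −1.12 and 1.06. Its single probe therefore gave a difference of more than 2-fold on each array in opposite directions. Irf8, a factor of myeloid cells, had 0.32 and −0.49, and both of its probes changed sign in the same way. Irf9, the DNA-binding partner of the Stat proteins, had 0.17 and −0.26, as the average of a probe at 0.34 and 0.24 and another at 0.011 and −0.77, which disagree in sign.

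Stat2, which carries the response to type I interferon to the nucleus, had 0.67 and 0.29 (mean 0.48 ± 0.27), above 0 on both arrays. Among the binding proteins of Irf2, which are transcriptional corepressors, Irf2bp1 had 0.20 and 0.89 and Irf2bpl 0.081 and 0.69. Both were near 0 on array 1 and higher on array 2. Irf2bp2 had 0.30 and −0.17.

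**Figure D3:**
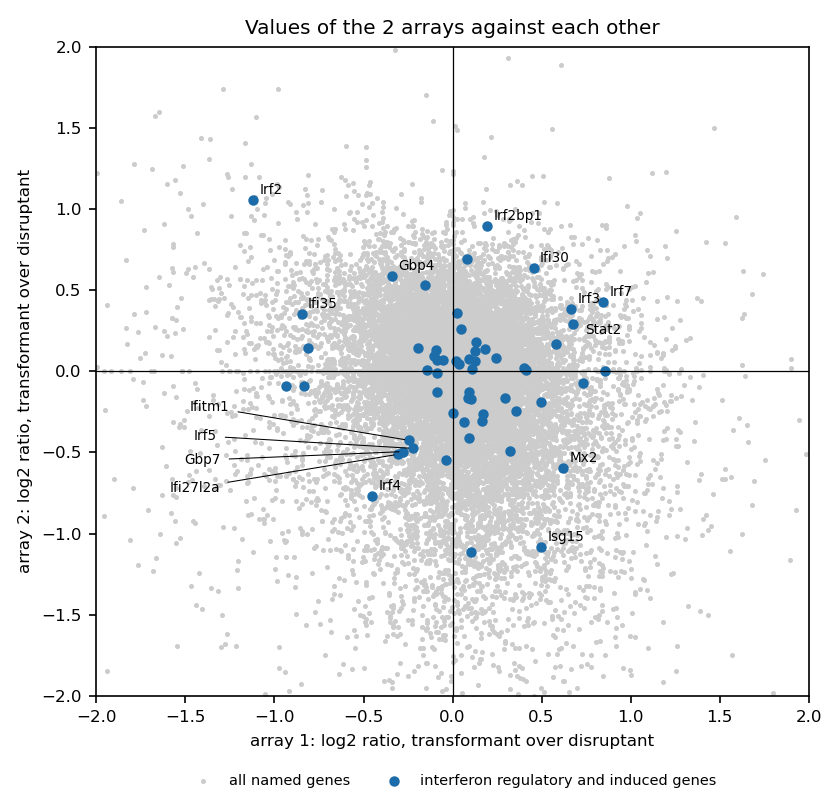
Log2 ratio of transformant over disruptant on array 1 (horizontal) and array 2 (vertical), with all 19087 named genes in grey and the 58 interferon regulatory and induced genes in blue; 130 named genes and 0 of the 58 fall outside the limits of 2. The labelled genes lead by the smaller of their 2 values above 0, below 0 or with opposite signs, and the 58 show no common diagonal (Pearson r = −0.093).

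Among the antiviral effectors, 3 of 8 were above 0 on both arrays, 1 below, and 4 had opposite signs. Isg15, a ubiquitin-like protein that is attached to other proteins, had 0.50 and −1.09, so the arrays disagreed. Usp18, the protease that takes Isg15 off again and also dampens receptor signalling, had 0.048 and 0.26. Mx1 and Mx2 are dynamin-like GTPases that block virus replication. Mx1 had 0.13 and 0.18, whereas Mx2 had 0.62 and −0.59. Bst2, known as tetherin because it holds virus particles at the cell surface, had 0.73 and −0.073.

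Ifih1, which encodes the RNA sensor MDA5, had 0.18 and 0.14 as the average of a probe at 0.36 and 0.27 and a probe deposited as 0 on both arrays. Rsad2, or viperin, had 0.10 and −0.17, and its 3 probes disagreed in sign. Isg20, a 3′ to 5′ exonuclease, lay below 0 on both arrays with −0.84 and −0.093. Both of its probes lay below 0 on both arrays, but the size on array 1 came from 1 of them, since they read −1.60 and −0.069 there. Psmb8 and Psmb9 are the catalytic subunits that replace their constitutive counterparts in the immunoproteasome. Psmb8 had 0.36 and −0.24, and Psmb9 0.091 and 0.078.

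The 6 Ifit genes, whose tetratricopeptide repeat proteins bind foreign RNA, lie on chromosome 19 and had medians of −0.019 and 0.0073. Ifit1 had 0.41 and 0.0062. Ifit2 had −0.037 and −0.54 and was the 1 Ifit gene below 0 on both arrays. Ifit1 and Ifit1bl2, which share the promoter stretch shown above, differed, with 0 and −0.26 for Ifit1bl2. The near-identical pair Ifit3 and Ifit3b had −0.14 and 0.0084, and −0.81 and 0.15. Probe sequences were not examined here, so which copy each probe reads is uncertain. Ifit1bl1 stayed close to 0, with 0.037 and 0.047.

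The 6 Ifitm genes encode small membrane proteins, some of which hinder virus entry. Ifitm1 and Ifitm3 are also known from early germ cells, where they were named fragilis genes. Ifitm1 had −0.25 and −0.43 (mean −0.34 ± 0.13), below 0 on both arrays. Ifitm3 had 0.024 and 0.36, above 0 on both and near it on array 1. Ifitm10 had 0.13 and 0.13. Ifitm2, Ifitm5 and Ifitm6 were below 0 on array 1 and above it on array 2. The bone gene Ifitm5 had −0.15 and 0.53, Ifitm2 −0.053 and 0.068, and Ifitm6 −0.094 and 0.13. The array medians of the family were −0.074 and 0.13.

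The guanylate binding proteins are GTPases induced mainly by interferon-gamma that attack vacuoles holding pathogens. Of 10 Gbp genes, 9 had opposite signs on the 2 arrays and 0 were above 0 on both. Different signs or a 0 were also common over all named genes, with 11178 of 19087. Gbp7 alone lay below 0 on both, with −0.28 and −0.49 (mean −0.39 ± 0.15). On array 1, 6 of the 10 were above 0, and on array 2, 7 of the 10 were below 0. The 5 genes of the cluster on chromosome 3 (Gbp2, Gbp2b, Gbp3, Gbp5 and Gbp7) had medians of 0.095 and −0.41. In this cluster Gbp2b was lowest on array 2, with 0.10 and −1.11, and Gbp2 had 0.095 and −0.41. Gbp3 had 0.17 and −0.30 and Gbp5 −0.11 and 0.096, which have opposite signs.

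The 5 Gbp genes of the cluster on chromosome 5 (Gbp4, Gbp6, Gbp8, Gbp9 and Gbp11) had medians of 0.063 and −0.16. Gbp4 had −0.34 and 0.59, and Gbp9 had 0.50 and −0.19. The members of both clusters are similar in sequence, so the share of signal from each is uncertain. Gbp6 had 0.063 and −0.32, Gbp8 −0.19 and 0.14, and Gbp11 0.084 and −0.16, so all 5 of this cluster changed sign between the arrays.

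The Ifi200 family, a cluster on chromosome 1 that encodes proteins with a DNA-binding HIN domain, was the group nearest to 0 on array 2, with values from −0.13 to 0.068. On array 1, Ifi202b stood at 0.85, with an exact 0 on array 2, and the other Ifi200 genes lay between −0.088 and 0.090. Ifi203 had 0.022 and 0.064, above 0 on both arrays. Below 0 on both were Ifi204 with −0.088 and −0.12 and Ifi209 with −0.085 and −0.010. Ifi205 had −0.087 and 0.068, and Ifi207 0.090 and −0.13. The averages of Ifi204, Ifi205 and Ifi209 hid probes that disagreed. For Ifi204 the 3 probes read from −1.15 to 0.86 on array 1 and from −0.55 to 0.23 on array 2. For Ifi209 they read from −0.67 to 0.53 on array 2, so the averages near 0 there join unlike probes. These genes too are close copies of each other.

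Of the other Ifi and Isg genes, Ifi30 was above 0 on both arrays with 0.46 and 0.64 (mean 0.55 ± 0.13, 1.46-fold). It encodes a lysosomal thiol reductase used in antigen processing. By the smaller of the 2 array values it led all members above 0, and its unadjusted limma p was 0.036 with an adjusted p of 1. Ifi44l had 0.58 and 0.17 and Ifi27 0.24 and 0.080. Ifi27l2a, a relative of Ifi27, lay below 0 with −0.30 and −0.51 (mean −0.41 ± 0.15), and both of its probes did. Ifi27l2b had −0.93 and −0.087.

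Ifi35, whose product binds the interferon-induced protein Nmi, had −0.85 and 0.35. Ifi47, an immunity-related GTPase, had 0.11 and 0.012. Isg20l2, an exonuclease of ribosomal RNA processing, had 0.12 and 0.065. The 2 Ifi27 relatives that were low and Ifi27 itself lie on chromosome 12 and did not share a direction.

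Exact zeros made up 10 of the 166 deposited member values (6.02%), against 4.39% of the values of all probes with 1 symbol, and touched Ifi202b, Ifi205, Ifih1, Ifit1bl1, Ifit1bl2 and Ifit2. Of the 20 members with several probes, 6 had probe means of different sign (Ifi204, Ifi205, Ifi209, Ifitm2, Rsad2 and Irf9). Across the 58 members, the correlation of array 1 with array 2 was −0.093 (Pearson) and 0.0073 (Spearman), and across all named genes it was −0.14 and −0.18. These correlations are across genes that share 2 arrays and are a description only.

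Other genes of the pathway were taken from lists, beginning with the genes upstream of the response. The 15 measured interferon genes had 4 above 0 on both arrays, 3 below and a median mean of 0.038, with Ifnab at 0.15 and 0.11 and Ifnl3 at −0.18 and −0.16. Of 9 receptor and Janus kinase genes, 2 were above 0 (Ifnar2 with 0.43 and 0.047, Jak2 with 0.13 and 0.60) and 1 below (Ifngr2 with −0.19 and −0.0014). Of 19 sensor and adaptor genes, 6 were above and 3 below. Dhx58, an RNA helicase that regulates the sensors, led those above with 0.51 and 0.88, and the endosomal RNA receptor gene Tlr8 led those below with −0.37 and −0.63. For these ligands, receptors and sensors limma called 0 genes, and 0 had an unadjusted p under 0.05. The background for such counts was 22.1% of named genes above 0 on both arrays and 19.4% below.

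Downstream, 5 of 37 other interferon-induced antiviral genes were above 0 on both arrays and 7 below, with a median mean of 0.030. For this and the following lists, the background was 22.1% of named genes above and 19.4% below. Tor3a had 0.43 and 0.24. Zc3hav1, a zinc finger protein that binds viral RNA, had −0.93 and −0.56. The immunity-related GTPases, relatives of the Gbp proteins, had 3 of 5 above and 0 below, led by Iigp1 with 0.68 and 0.24. The others above were near 0 on at least 1 array, with 0.024 and 0.050 for Igtp and 0.42 and 0.031 for Tgtp1. Of 16 antigen presentation genes, 4 were above and 2 below. There the class I gene H2-M3 had 0.72 and 0.60, and Erap1, an aminopeptidase that trims peptides, −0.28 and −0.38. Psmb10, the remaining catalytic subunit of the immunoproteasome, had 0.56 and 0.30 and was picked after its values were seen. Of 15 other Stat genes and negative regulators, 3 were above and 2 below, with Stat5a at 0.065 and 0.44 and Pias1 at −0.27 and −0.83. limma called 0 genes in these lists too, while Zc3hav1 and H2-M3 had an unadjusted p of 0.047 and 0.019.

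The Oas genes, interferon-induced enzymes that were set apart by the rule, differed from the members in their values. Of 12, 8 lay below 0 on both arrays and 0 above, with a median mean of −0.45, against 10 and 20 of 58 and 0.010 for the members. Of all named genes, 19.4% lay below 0 on both arrays. At least 1.5-fold lower on both arrays were 5 of the 12 Oas genes (Oas1a, Oas1b, Oas1d, Oas1f and Oas2), against 0 of the 58 and 1.22% of named genes. limma called 0 of the 12, and 4 (33.3%) had an unadjusted p under 0.05, against 1 member (1.72%) and 3.38% of named genes. These genes are 1 family on chromosome 5, and probe sequences were not examined, so which Oas1 copy each probe reads is uncertain. The difference between the lists was not tested.

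**Figure D4:**
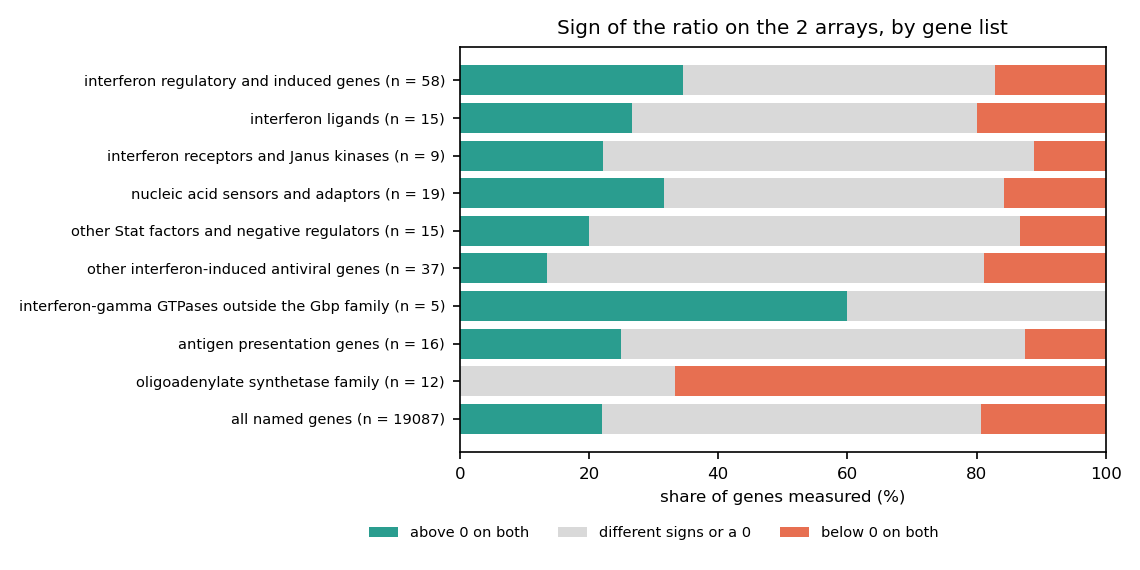
Share of the genes of each list (horizontal axis, percent) with a ratio above 0 on both arrays (green), below 0 on both (orange) or neither (grey). Above 0 were 34.5% of the 58 interferon regulatory and induced genes and 22.1% of all named genes, and below 0 were 66.7% of the 12 Oas genes and 19.4% of all named genes.

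Markers of other cells were compared as ratios only. Of the 8 stem cell markers, 6 lay below 0 on both arrays and 2 above (Pou5f1 and Utf1), with a median mean of −0.77. limma called 0 of the 8, and 4 had an unadjusted p under 0.05 (Sox2, Nanog, Zfp42 and Dppa3). The background over all named genes was 22.1% above 0 on both arrays, 19.4% below, and 3.38% with an unadjusted p under 0.05. Macrophage and lymphoid markers, of which 7 of 10 were measured, had 2 above, 1 below and a median mean of −0.0048, and the 8 feeder fibroblast markers had 2 above, 1 below and 0.017. The 7 trophoblast markers had 1 above, 2 below and −0.20, and the 6 primitive endoderm markers 0 above, 2 below and 0.068. Single markers differed more than these medians. Thy1 (feeder fibroblast) had −1.06 and −0.91, and Eomes (trophoblast) −0.51 and −0.51, with an unadjusted limma p of 0.010 and 0.023. Pdgfrb (feeder fibroblast) had 1.38 and 0.46. Of the primitive endoderm markers, all 6 lay below 0 on array 1 and 4 above 0 on array 2, and Amn had −1.22 and −0.63. The part of all these markers in the values of the interferon genes was not tested.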

How the data were processed

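RNA of 2 pairs of embryonic stem cell clones was measured on 2 dye-swapped arrays. The authors deposited 1 log10 ratio per spot and array for 43790 spots. Arrays were processed with Agilent Feature Extraction, per the submitters' processing notes. The sources used here do not give its version or how background and dyes were corrected. Depth has no meaning for arrays, whose number limits the precision.

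Ratios were multiplied by 3.32 (log2 of 10), array 2 was multiplied by −1 so that the transformant is on top in both, and probes with the same symbol were averaged. GEO's annotation gave 1 symbol for 32042 spots, several for 47 and none for 11701. Of the last, 725 below −1 in the deposited value on both arrays were taken as control spots and left out. All 58 members matched the RefSeq table of GRCm38.p6 by gene number, which was used for chromosomes. limma 3.58.1 (R 4.3.3; lmFit, eBayes) tested the mean of 30110 entries against 0, two-sided, with p-values adjusted by Benjamini-Hochberg and a threshold of 0.05, and the script was tested on simulated data. A p-value measures only the spread between these 2 arrays, which holds differences of clone pair and of dye orientation together. Each clone pair was hybridised in 1 dye orientation, so these cannot be told apart. The transformants share an origin. Flipping the signs of 2 arrays allows no p below 0.5.

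Members, lists, motifs and alternatives were chosen with earlier results of these data known. Every member is named with both values. Those leading a direction, and the genes named from other lists, were ranked by the smaller absolute value of the 2 arrays. A further gene that the rule names is not reported here. Protein sequences were not used here.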

Additional observations from a re-analysis of the deposited data

How the results depend on the processing

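The counts of members above and below 0 on both arrays stayed within 1.5 times of 20 and 10, and the median within the spread of the arrays, with medians over probes, each probe by itself, another centring, a common spread, exact zeros left out and a log2 reading. limma called 0 members in each of these. It also called 0 with array 2 not turned, control spots kept, probes with 1 symbol only or a robust variance model. Across these fits, 0 to 3 members had an unadjusted p under 0.05. With each probe by itself the counts were 25 above 0 and 11 below, out of 83 probes rather than 58 members. A common spread, exact zeros left out or a log2 reading could not change the counts by sign. With array 2 not turned, a reading against the dye labels that subtracts what the arrays have in common, the median of members was 0.085, 2 members (Irf2 and Mx2) reached 1.5-fold on both arrays, and the share above 0 on both was 25.9% of members against 28.2% of named genes. On a single array the count above 0 ranged from 31 to 36, that below 0 from 21 to 26, that of at least 1.5-fold from 9 to 11, and the median from 0.010 to 0.087. Here only 1 array has to pass, and without array 2 the share above 0 was 62.1% of members against 50.7% of named genes, and without array 1 53.4% against 49.6%. The 30 members on 1 side of 0 were taken for having equal signs on both arrays. A single array, a common spread, exact zeros left out or a log2 reading therefore could not change their sign. Medians over probes and another centring could, and there 0 of the 30 changed the sign of their mean. With medians over probes, however, 8 rather than 10 members lay below 0 on both arrays. The median probe of Ifi204 read 0.022 on array 1 and that of Ifi209 read 0.11 on array 2. With array 2 not turned, the mean of such a member changes sign whenever its value on array 2 is the larger in size. That setting therefore only compares the size of the 2 arrays and cannot show how stable a direction is. The sign changed for 16 of the 30. Their means with array 2 not turned were Gbp7 0.11, Ifi204 0.018, Ifi27l2a 0.10, Ifit2 0.25, Ifitm1 0.0895, Irf4 0.16, Irf5 0.13 above 0, and Ifi203 −0.021, Ifi30 −0.091, Ifit1bl1 −0.0051, Ifitm10 −0.00033, Ifitm3 −0.17, Irf2bp1 −0.35, Irf2bpl −0.31, Mx1 −0.027, Usp18 −0.11 below it. No paired analysis was possible because each array already holds a pair and there is 1 group of 2 arrays. Weak spots could not be filtered, since no intensity was used.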
